A study of Mus musculus with 17 samples.

Results

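The genes described here are 6 inhibitors of cyclin-dependent kinases (Cdkn1a, Cdkn1b, Cdkn1c, Cdkn2a, Cdkn2b and Cdkn2c) and the 3 D-type cyclins (Ccnd1, Ccnd2 and Ccnd3). They were chosen by name: every array probe whose gene name is one of these 9 was taken, which gave 15 of the 39429 probes and 9 of the 31686 gene names on the array. All 9 genes were among the 26039 that passed the filter on dim probes. RNA came from Foxl1-CRE; RosaYFP mice of 6 to 10 weeks, in which Cre made under the Foxl1 gene switches on a yellow fluorescent reporter, so every group carries both alleles. Per the labels' protocols the RNA was from liver tissue and from sorted cells, without naming the groups that were sorted or the marker used. The groups were liver progenitors differentiated in vitro to hepatocytes (the hepatocyte condition, n = 4) or to cholangiocytes, the bile duct cells (the cholangiocyte condition, n = 3), primary hepatocytes (n = 4), primary cholangiocytes (n = 2) and undifferentiated adult hepatic progenitor cells (n = 4). The study set cells differentiated in culture against primary cells. The labels do not say whether arrays of a group came from separate mice or cultures, and the p-values therefore cover only the scatter among these arrays, which may be technical.

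Cyclin D binds the kinases Cdk4 and Cdk6, and the active pair phosphorylates the retinoblastoma protein, which then lets E2F factors switch on the genes of DNA replication. The INK4 inhibitors (Cdkn2a, Cdkn2b, Cdkn2c) bind Cdk4 and Cdk6 and keep cyclin D away, whereas the CIP/KIP inhibitors (Cdkn1a, Cdkn1b, Cdkn1c) bind whole cyclin-kinase complexes. In the adult liver most hepatocytes rest outside the cell cycle, and cyclin D1 is induced when they re-enter it after tissue loss. Cdkn2a and Cdkn2b are known to build up in cells kept in culture.

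Each level below is a probe's deposited processed signal divided by its array's 75th percentile, on the log2 scale, so 0 is that percentile. A gene with several probes is given by the one with the highest mean. Levels are compared between arrays for the same probe, never between probes. The 75th percentile was 546.6 to 986.4 intensity units on the primary hepatocyte arrays and at least 1747 units on the others, and 23816 to 29152 probes per array were above background. The labelled cell types were checked with marker genes. The mean of 12 hepatocyte genes ran between -4.17 and 2.51 in the hepatocyte condition. It was -5.28 in the cholangiocyte condition, 7.58 in primary hepatocytes, -5.12 in primary cholangiocytes, and ran between -7.42 and -2.64 in undifferentiated cells. Alb, the albumin gene, was 7.62, -4.76, 7.58 and -3.65 in the hepatocyte condition and 6.00, 1.26, -4.44 and -8.74 in undifferentiated cells, so neither group was uniform for it. Primary cholangiocytes had Epcam, a surface protein of bile duct cells, at 3.05 and 2.22, while it ran between -7.77 and -2.80 on all other arrays. The mean of the whole list of 10 cholangiocyte genes was -1.02 in the hepatocyte condition, -1.04 in the cholangiocyte condition, -4.06 in primary hepatocytes, 1.24 in primary cholangiocytes and -1.26 in undifferentiated cells. Krt19, a keratin of bile duct cells, was high outside primary hepatocytes: it ran between 3.79 and 5.16 in the hepatocyte condition, was 6.72, 5.85 and 6.99 under the cholangiocyte condition, ran between -8.52 and -5.84 in primary hepatocytes, was 7.29 and 6.68 in primary cholangiocytes, and ran between 5.66 and 7.03 in undifferentiated cells.

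Probes and promoters are shown first, since the array reads Cdkn1a in more than one place and Cdkn2a in a place that its transcripts share. Per the file annotation (build mm9), the main Cdkn1a probe lies at chr17:29237377-29237436 on the plus strand. A second Cdkn1a probe, matched by accession to transcript variant 2, lies upstream at chr17:29227986-29228045. The Cdkn2a probes lie at chr4:88920405-88920464 and chr4:88920543-88920602 on the minus strand, near the 3′ end. That end is common to the transcripts for the INK4 inhibitor p16Ink4a and for the p53 activator p19Arf, so these probes cannot tell them apart. The main Cdkn2b probe lies at chr4:88952276-88952335 on the minus strand, in the same cluster of genes. The cyclin probes lie on the minus strand at chr7:152116202-152116261 for Ccnd1 and chr6:127098696-127098755 for Ccnd2. The first 30 of the 60 bases of each are as follows, with no base marked.
Cdkn1a, main probe: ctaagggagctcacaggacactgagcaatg
Cdkn1a, variant 2 probe: aatggagacagagaccccagataattaagg
Cdkn2a, main probe: ggcatgagaaactgagcgaaggcggccgcg
Cdkn2a, second probe: cttctagcgatgctagcgtgtctagcatgt
Cdkn2b, main probe: ccagtgatgaattgtagtggtagcaggtta
Ccnd1, main probe: ttaatctgttaggttctagtgttccgtctt
Ccnd2, main probe: aagagaccatcccgctgactgcggaaaagc

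Promoter windows came from RefSeq (GRCm38.p6) for 6 of the 9 genes, with 10 start sites in all. The 100 bases before the start are shown for Cdkn1a, Cdkn2a and Cdkn2b, the inhibitors with the widest differences between groups. The upstream Cdkn1a window is chr17:29090879-29090978 and the downstream one chr17:29093669-29093768, both on the plus strand. The upstream Cdkn2a window, before the start known to give p19Arf, is chr4:89294620-89294719, and the downstream one, before the start known to give p16Ink4a, is chr4:89282193-89282292. The Cdkn2b window is chr4:89311033-89311132, and all these chromosome 4 windows are on the minus strand. Capitals mark motif matches on either strand: the p53 half-site in the upstream Cdkn1a window, the GC box (GGGCGG) in the downstream one, the GC box and the E2F motif (TTCCCGC) in the upstream Cdkn2a window, and the cyclic AMP response element (TGACGTCA) in Cdkn2b.
Cdkn1a, upstream start: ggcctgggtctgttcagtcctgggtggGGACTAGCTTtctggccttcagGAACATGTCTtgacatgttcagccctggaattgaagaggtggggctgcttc
Cdkn1a, downstream start: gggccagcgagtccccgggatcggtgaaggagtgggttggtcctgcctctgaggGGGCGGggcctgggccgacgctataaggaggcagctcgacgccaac
Cdkn2a, upstream start: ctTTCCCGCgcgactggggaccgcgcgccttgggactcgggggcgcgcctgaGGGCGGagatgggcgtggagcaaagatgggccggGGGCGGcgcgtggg
Cdkn2a, downstream start: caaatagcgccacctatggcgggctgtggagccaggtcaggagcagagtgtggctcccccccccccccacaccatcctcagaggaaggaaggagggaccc
Cdkn2b: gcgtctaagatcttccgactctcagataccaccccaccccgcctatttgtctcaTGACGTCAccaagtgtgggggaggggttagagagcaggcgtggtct
Within 250 bases before the start, the p53 half-site was present in 7.13% of all 32851 mouse windows, the GC box in 32.7%, the E2F motif in 3.82% and the cyclic AMP response element in 1.55%. A match is a run of letters and no evidence of binding. The pairs of starts also differed in base composition. The upstream Cdkn1a window held 2 CG dinucleotides in 250 bases and the downstream one 19, and the upstream Cdkn2a window held 40 and the downstream one 7.

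Among the CIP/KIP inhibitors, Cdkn1a (p21), the classical p53 target, was high in every group but primary hepatocytes. Its levels were 1.58, 2.24, 2.27 and 2.46 in the hepatocyte condition, 3.28, 2.95 and 3.64 under the cholangiocyte condition, -4.38, -4.89, -4.74 and -5.95 in primary hepatocytes, 1.39 and 2.25 in primary cholangiocytes, and 3.13, 2.47, 3.12 and 3.10 in undifferentiated cells. All 4 primary hepatocyte arrays lay below all 13 others. The order of group means was cholangiocyte condition, undifferentiated, hepatocyte condition, primary cholangiocyte and primary hepatocyte, and of neighbours in that order only the last pair differed beyond the spread. Array 2 of the undifferentiated cells stood below the other 3 of its group.

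Cdkn1b (p27), an inhibitor kept up in resting cells and known to be cleared largely through the ubiquitin ligase subunit Skp2, spanned a far smaller range. Its levels were 2.31, 2.80, 2.72 and 2.79 in the hepatocyte condition, 1.53, 1.52 and 1.56 under the cholangiocyte condition, 1.03, 1.11, 0.91 and 1.1 in primary hepatocytes, 2.48 and 1.19 in primary cholangiocytes, and 1.86, 1.38, 2.15 and 2.04 in undifferentiated cells. The hepatocyte condition came first in its order and differed from the next group, undifferentiated cells; the primary cholangiocyte arrays lay far apart. Its second probe, at chr6:134873606-134873665, correlated with the main probe at only r = 0.711 over the 17 arrays, against 0.986 for the pair of Cdkn2b probes and 0.990 for the pair of Cdkn2a probes.

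Cdkn1c (p57), an imprinted gene made from the maternal copy, was dim and variable. Its levels were -0.19, -0.80, -1.48 and -1.65 in the hepatocyte condition, -4.11, -2.60 and -2.84 under the cholangiocyte condition, -2.47, -2.03, -2.16 and -2.18 in primary hepatocytes, -2.80 and -0.24 in primary cholangiocytes, and -3.11, -1.32, -1.64 and -3.91 in undifferentiated cells. The hepatocyte condition lay above the cholangiocyte condition on every array, whereas the undifferentiated arrays overlapped both. No neighbours in its order of group means differed beyond the spread.

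Of the INK4 inhibitors, Cdkn2a and Cdkn2b were highest in undifferentiated cells. Cdkn2a had levels of 1.80, 0.54, 2.12 and 1.88 in the hepatocyte condition, 2.69, 2.92 and 2.16 under the cholangiocyte condition, 0.19 and 2.10 in primary cholangiocytes, and 3.04, 3.83, 3.76 and 3.93 in undifferentiated cells. In primary hepatocytes it was not well above background on any of the 4 arrays, where its measured values ran between -8.44 and -7.58. All undifferentiated arrays were above all arrays of the other groups.

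Cdkn2b (p15), known to be induced by TGF-beta, was also highest in undifferentiated cells and lowest in primary hepatocytes. Its levels were 1.71, 1.43, 1.71 and 1.15 in the hepatocyte condition, 2.75, 2.92 and 2.74 under the cholangiocyte condition, -4.49, -3.96, -4.69 and -4.05 in primary hepatocytes, 1.46 and 1.98 in primary cholangiocytes, and 3.40, 3.75, 3.85 and 3.79 in undifferentiated cells. The order was undifferentiated, cholangiocyte condition, primary cholangiocyte, hepatocyte condition, primary hepatocyte. Cholangiocyte condition differed from primary cholangiocyte and hepatocyte condition from primary hepatocyte, while the other neighbours did not pass the test.

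Cdkn2c (p18) had a small range. It had values of -0.95, -1.45, -0.96 and -1.83 in the hepatocyte condition, -1.69, -1.88 and -1.57 under the cholangiocyte condition, -1.69, -1.68, -1.60 and -1.58 in primary hepatocytes, -1.97 and -2.49 in primary cholangiocytes, and -2.03, -1.82, -1.60 and -2.15 in undifferentiated cells. No neighbours in its order differed, and it passed in none of the 8 comparisons of groups.

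The D-type cyclins split in the same way. Ccnd1, the cyclin that rises when hepatocytes enter the cycle, had levels of 4.98, 3.78, 4.66 and 5.13 in the hepatocyte condition, 6.84, 6.36 and 5.82 under the cholangiocyte condition, -0.38, -0.22, 0.66 and -0.87 in primary hepatocytes, 3.39 and 5.16 in primary cholangiocytes, and 6.36, 6.83, 6.32 and 6.78 in undifferentiated cells. Its undifferentiated and cholangiocyte-condition arrays overlapped at the top, and the hepatocyte condition and primary cholangiocytes overlapped below them.

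Ccnd2 had levels of 1.90, 1.97, 2.93 and 3.38 in the hepatocyte condition, 5.15, 3.44 and 3.90 under the cholangiocyte condition, -3.86, -3.40, -3.60 and -3.84 in primary hepatocytes, 2.17 and 4.97 in primary cholangiocytes, and 5.04, 4.41, 4.36 and 5.27 in undifferentiated cells. Only the hepatocyte condition and primary hepatocytes differed among neighbours in its order. Ccnd3, by contrast, was 3.20, 3.62, 3.14 and 4.06 in the hepatocyte condition, 2.32, 2.38 and 3.25 under the cholangiocyte condition, 3.17, 2.91, 2.98 and 3.28 in primary hepatocytes, 3.31 and 3.97 in primary cholangiocytes, and 2.51, 2.70, 3.53 and 3.73 in undifferentiated cells. No neighbours in the Ccnd3 order differed, and its primary hepatocyte arrays lay within the range of the others.

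**Figure D1:**
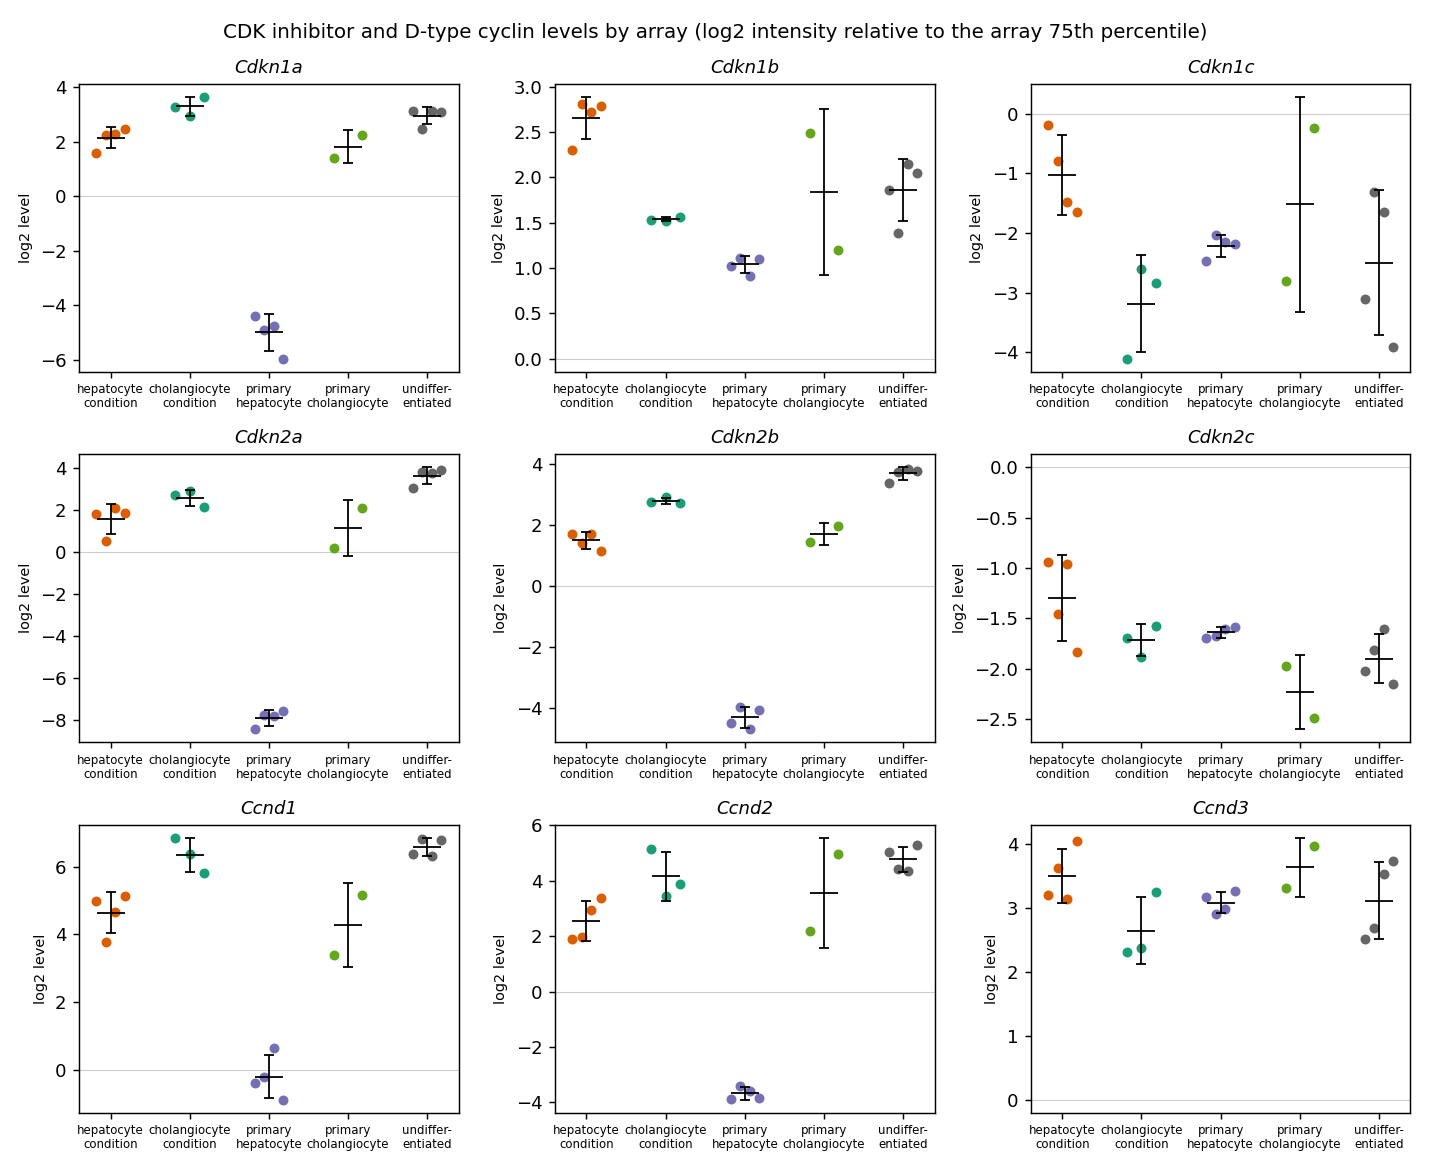
Level of each of the 9 genes (log2 of the processed signal relative to the array's 75th percentile, vertical axis, scaled separately in each panel) in every array of the 5 groups; points are arrays and bars are group means ± SD. Cdkn1a, Cdkn2a, Cdkn2b, Ccnd1 and Ccnd2 lie far lower in primary hepatocytes than in any other group, whereas Cdkn1b, Cdkn1c, Cdkn2c and Ccnd3 do not.

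Across the 17 arrays the levels of Cdkn1a, Cdkn2a, Cdkn2b, Ccnd1 and Ccnd2 correlated with each other at r = 0.961 to 0.991. Cdkn1b correlated with these at 0.426 to 0.587. These are descriptions over arrays that fall into separate clusters, since the primary hepatocytes stand apart, and the arrays share their amplification and scaling. Of the 17154 genes compared, the closest to Cdkn1a were 5730528L13Rik (r = 0.994), the p53 target Phlda3 (0.993) and Tmem132a (0.992). Closest to Cdkn2a were Gm9210 (0.994), Psrc1 (0.994) and Ap1s2 (0.993), and closest to Cdkn2b were Emp1 (0.992), Cdkn2a (0.991) and Nup160 (0.990). Ccnd1 was most like Gm5780 (0.987), Mex3c (0.986) and Vbp1 (0.984), and Ccnd2 was most like Dync1li2 (0.987), Csda (0.983) and Ppic (0.983). The others had looser matches. Cdkn1b was most like Ssh3 (0.905), the INK4 gene Cdkn2d (0.893) and Magi1 (0.892), and Cdkn1c was most like Efhd1 (0.805), Bhlhe41 (0.804) and Gm2022 (0.796). Cdkn2c was most like Setdb2 (0.835), 1110032A03Rik (0.813) and Gm5151 (0.810), and Ccnd3 was most like Tprgl (0.852), Dnaja4 (0.835) and Pja2 (0.806).

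The first comparison asked what hepatocyte differentiation did to progenitors. In the hepatocyte condition Cdkn2a, Cdkn2b, Ccnd1 and Ccnd2 fell and Cdkn1b rose relative to undifferentiated cells. The inhibitor Cdkn2b and the cyclins Ccnd1 and Ccnd2, which act on the same kinases, thus fell in the same arrays. Cdkn2a fell too, but its probes cannot tell p16Ink4a from p19Arf. In RNA from many cells, fewer cells that hold a transcript and less RNA per cell cannot be told apart. Of the 9 genes, 1 was higher and 4 were lower; over all genes tested, 7.61% were higher and 7.7% lower. The median difference of the 9 was -0.82, against 0.07 over all genes. Leaving out any 1 array left 4 to 5 genes that passed. Differences between groups come from limma with all 17 arrays in one model, are given on the log2 scale with standard errors, and passed if the Benjamini-Hochberg adjusted p over all genes was under 0.05.

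Cdkn2b averaged 1.50 ± 0.27 in the hepatocyte condition and 3.70 ± 0.20 in undifferentiated cells (SD, n = 4 each). The difference was -2.20 ± 0.20 (95% interval -2.63 to -1.77, adjusted p = 1.55e-05), which made it 4.58-fold lower. Within the 3 slides that held both groups it was -2.32, -2.25 and -2.14. The second Cdkn2b probe gave -2.63 (adjusted p = 0.000624 over probes).

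Cdkn2a averaged 1.58 ± 0.71 in the hepatocyte condition and 3.64 ± 0.40 in undifferentiated cells. It was 4.15-fold lower, a difference of -2.05 ± 0.42 (adjusted p = 0.00462) that was -3.28, -1.16 and -1.96 within slides. Its second probe gave -1.67 (adjusted p = 0.0368).

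Ccnd1 averaged 4.64 ± 0.60 in the hepatocyte condition and 6.57 ± 0.27 in undifferentiated cells. The difference of -1.93 ± 0.42 (adjusted p = 0.00664) was 3.82-fold, and was -3.04, -1.23 and -1.33 within slides. Ccnd2 averaged 2.54 ± 0.73 in the hepatocyte condition and 4.77 ± 0.46 in undifferentiated cells, a difference of -2.23 ± 0.54 (adjusted p = 0.0126). Ccnd2 stayed lower within each slide, at -2.45, -1.66 and -2.46, but did not pass with slide as a block (adjusted p = 0.0531). Ccnd3 differed by 0.39 ± 0.31 (adjusted p = 0.490), and so did not pass.

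Cdkn1b averaged 2.65 ± 0.24 in the hepatocyte condition and 1.86 ± 0.34 in undifferentiated cells, a difference of 0.79 ± 0.24 (95% interval 0.27 to 1.32, adjusted p = 0.0401). Within slides it was 1.42, 0.93 and 0.16. This call was lost in 11 of 20 alternative settings, among them slide as a block (adjusted p = 0.0690), and the second Cdkn1b probe did not pass at 0.52 (adjusted p = 0.428). The main Cdkn1a probe gave -0.82 ± 0.33 (adjusted p = 0.116) and did not pass, although the groups did not overlap. Cdkn1c at 1.47 ± 0.62 (adjusted p = 0.138) and Cdkn2c at 0.60 ± 0.21 (adjusted p = 0.0655) did not pass either. Cdkn1a passed in 3 and Cdkn2c in 2 of 20 alternatives.

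Genes around these in the pathway are given as lists chosen with earlier results of these data known. Of 20 mitotic genes 19 were lower in the hepatocyte condition and none higher, with a median of -1.89; Bub1, a spindle checkpoint kinase, differed by -2.92 ± 0.37 (adjusted p = 0.00017). Of 20 S-phase genes induced by E2F 10 were lower and none higher, among them Ccna2, the cyclin of S phase, at -2.24 ± 0.57 (adjusted p = 0.0164). Of 20 G1 kinases, pocket proteins and E2F factors 2 were higher and 6 lower. The higher ones were Cdkn2d, the fourth INK4 inhibitor (1.40 ± 0.17, adjusted p = 0.000163), and Rbl2, a relative of the retinoblastoma protein (1.02 ± 0.28, adjusted p = 0.0227). Cdk6, a partner of cyclin D, was lower by -1.37 ± 0.24 (adjusted p = 0.00157).

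Among 14 genes for the turnover and transcription of p27, 3 were higher and 4 lower in the hepatocyte condition. Foxo1 and Foxo4, transcription factors known to induce Cdkn1b, were higher by 1.25 ± 0.22 (adjusted p = 0.0017) and 1.22 ± 0.19 (adjusted p = 0.00103). Skp2 and its cofactor Cks1b, which target p27 for destruction, were lower by -1.45 ± 0.24 (adjusted p = 0.00126) and -1.34 ± 0.26 (adjusted p = 0.00329). Of 20 genes for p53 and its targets 1 was higher and 10 were lower, including Mdm2, the p53 ubiquitin ligase (-1.76 ± 0.30, adjusted p = 0.00157). Of 14 tested genes for cyclin D turnover and induction 3 were higher and 3 lower. Those lower included the AP-1 subunit Fosl1 at -1.81 ± 0.40 (adjusted p = 0.00781) and Ctnnb1, which encodes beta-catenin, at -1.14 ± 0.19 (adjusted p = 0.0011).

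Of 16 Polycomb repressors, which are known to silence the Cdkn2a and Cdkn2b cluster, 2 were higher and 2 lower. Ezh1 differed by 1.03 ± 0.15 (adjusted p = 0.000555) and its relative Ezh2, the form of dividing cells, by -0.89 ± 0.18 (adjusted p = 0.0048). Of 20 TGF-beta pathway genes 1 was higher and 3 lower. Of 17 imprinted genes 4 were higher and 3 lower, including Kcnq1, a neighbour of Cdkn1c, at 4.80 ± 1.33 (adjusted p = 0.0247).

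**Figure D2:**
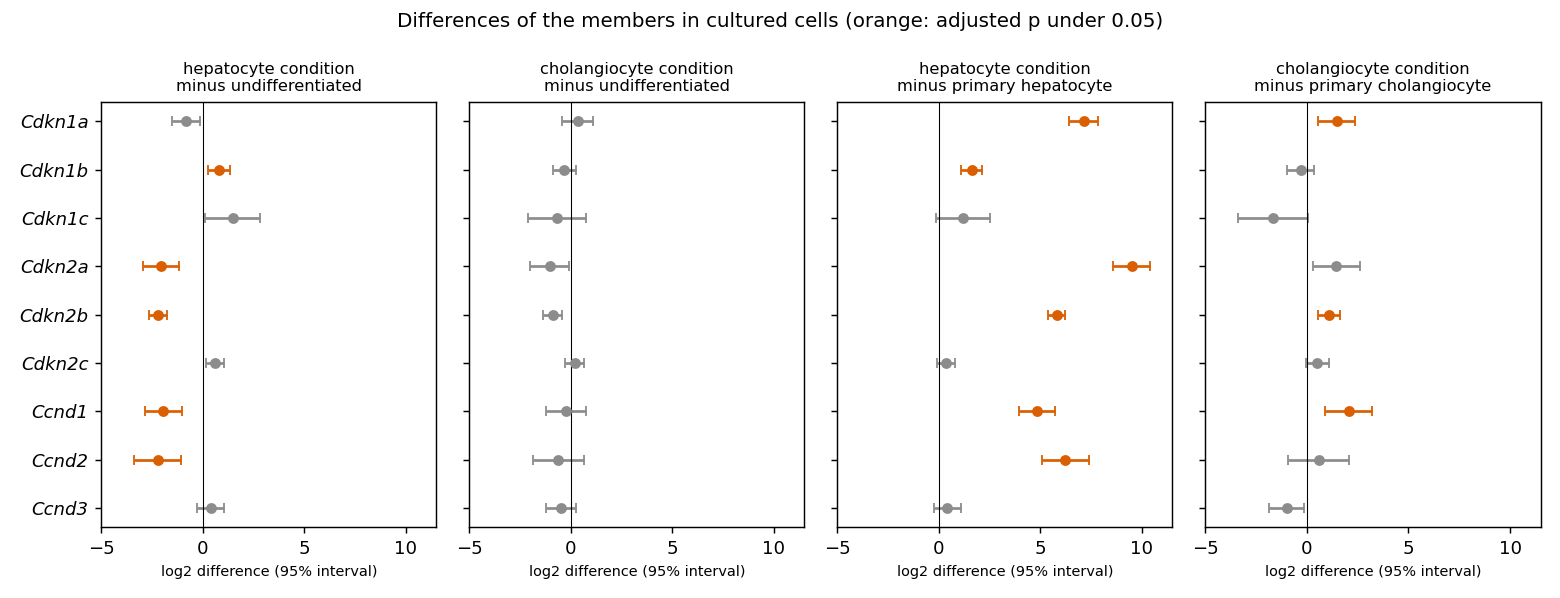
Difference in level of the 9 genes (log2, horizontal axis) with 95% intervals in 4 comparisons: hepatocyte condition minus undifferentiated, cholangiocyte condition minus undifferentiated, hepatocyte condition minus primary hepatocyte and cholangiocyte condition minus primary cholangiocyte; orange marks an adjusted p under 0.05. The numbers that passed were 5, 0, 6 and 3; the Cdkn2a value against primary hepatocytes rests on signals not above background there.

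The same question was asked of cholangiocyte differentiation, and here no member passed. Relative to undifferentiated cells 0 of the 9 genes were higher and 0 lower in the cholangiocyte condition by limma, against 0.783% higher and 0.599% lower over all genes. At an unadjusted limma p under 0.05 there were 2, Cdkn2a and Cdkn2b, where 3334 of all 26039 genes were. The authors' deposited table held none of the 9 at a false discovery rate of 5%. Cdkn2b averaged 2.80 ± 0.10 in the cholangiocyte condition (n = 3) and 3.70 ± 0.20 in undifferentiated cells (n = 4). All 3 arrays lay below all 4, a difference of -0.90 ± 0.22 (95% interval -1.36 to -0.43, adjusted p = 0.0626). It was -1.01 and -1.11 within the 2 slides that held both groups, and passed under 3 alternatives, with an adjusted p of 0.0293 when arrays were centred on their median. Cdkn2a differed by -1.05 ± 0.45 (adjusted p = 0.348).

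Ccnd1 was 6.34 ± 0.51 in the cholangiocyte condition and 6.57 ± 0.27 in undifferentiated cells; the interval of the difference, -1.20 to 0.74, allows a change of either sign. Cdkn1a differed by 0.34 ± 0.35 (adjusted p = 0.739), Cdkn1b by -0.32 ± 0.26 (adjusted p = 0.643) and Ccnd2 by -0.61 ± 0.58 (adjusted p = 0.708). Cdkn1c (-0.69 ± 0.67), Cdkn2c (0.19 ± 0.22) and Ccnd3 (-0.47 ± 0.34) had adjusted p of 0.715, 0.775 and 0.595. None of the 20 mitotic, 20 S-phase or 20 G1 genes passed in either direction. The AP-1 subunit Jun was the 1 gene of 14 around cyclin D that was higher, by 3.12, and of 20 genes around p53 Perp (-1.23) and Sesn1 (-1.08) were lower.

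Setting the differentiated conditions side by side tests the difference between them directly. The hepatocyte condition had more Cdkn1b and Cdkn1c and less Cdkn1a, Cdkn2b and Ccnd1 than the cholangiocyte condition. Of the 9 genes 2 were higher, where 6.97% of all genes were, and 3 lower, where 8.4% of all genes were. Cdkn2b differed by -1.30 ± 0.22 (adjusted p = 0.00132) and was -1.31, -1.20 and -1.04 within the slides that held both. It was the only one of the 5 calls that passed under every alternative.

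Cdkn1b differed by 1.12 ± 0.26 (adjusted p = 0.0106), 2.17-fold, and by 1.24, 1.20 and 0.77 within slides. Among the alternatives its call was lost only when probes were averaged, but none of them took the second Cdkn1b probe alone. That probe gave 0.79 (adjusted p = 0.244 over probes) and did not pass. Ccnd1 differed by -1.70 ± 0.45 (adjusted p = 0.0207), with -2.04, -1.70 and -1.86 within slides, and lost its call in 3 of 19 alternatives. Cdkn1c averaged -1.03 ± 0.67 in the hepatocyte condition, against -3.18 ± 0.81 in the cholangiocyte condition, a difference of 2.16 ± 0.67 (adjusted p = 0.0445). Cdkn1a averaged 2.14 ± 0.39 in the hepatocyte condition, against 3.29 ± 0.35 in the cholangiocyte condition, a difference of -1.16 ± 0.35 (adjusted p = 0.0416). These last calls were lost in 9 and 10 of 19 alternatives. Ccnd2 at -1.62 ± 0.58 (adjusted p = 0.0799) and Cdkn2a at -1.01 ± 0.45 (adjusted p = 0.162) did not pass, nor did Cdkn2c at 0.42 ± 0.22 (adjusted p = 0.256) and Ccnd3 at 0.86 ± 0.34 (adjusted p = 0.112). Of these, Ccnd2 passed in 3 of 19 alternatives, and Cdkn2a and Ccnd3 in 1 each.

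Around them, 19 of 20 mitotic and 17 of 20 S-phase genes were lower in the hepatocyte condition than in the cholangiocyte condition and none was higher. Mki67, a marker of dividing cells, was 1.84, 0.52, 1.11 and 0.44 in the hepatocyte condition, against 3.78, 3.18 and 3.42 in the cholangiocyte condition. Cdkn2d was higher by 1.56 ± 0.19 (adjusted p = 0.000132), Foxo4 by 1.86 ± 0.21 (adjusted p = 8.53e-05) and Foxo1 by 1.26 ± 0.23 (adjusted p = 0.00258). Skp2 was lower by -1.31 ± 0.26 (adjusted p = 0.00375), and Ccne1, the next cyclin after cyclin D, by -1.70 ± 0.36 (adjusted p = 0.00587). Of the 14 genes around p27, 3 were higher and 4 lower, and of the 20 G1 genes 2 were higher and 9 lower. The part of these genes in the Cdkn1b difference was not tested. Of the 17 imprinted genes 3 were higher and 3 lower; Igf2, a growth factor of the Cdkn1c chromosome region, differed by 4.30 ± 0.74 (adjusted p = 0.0016).

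**Figure D3:**
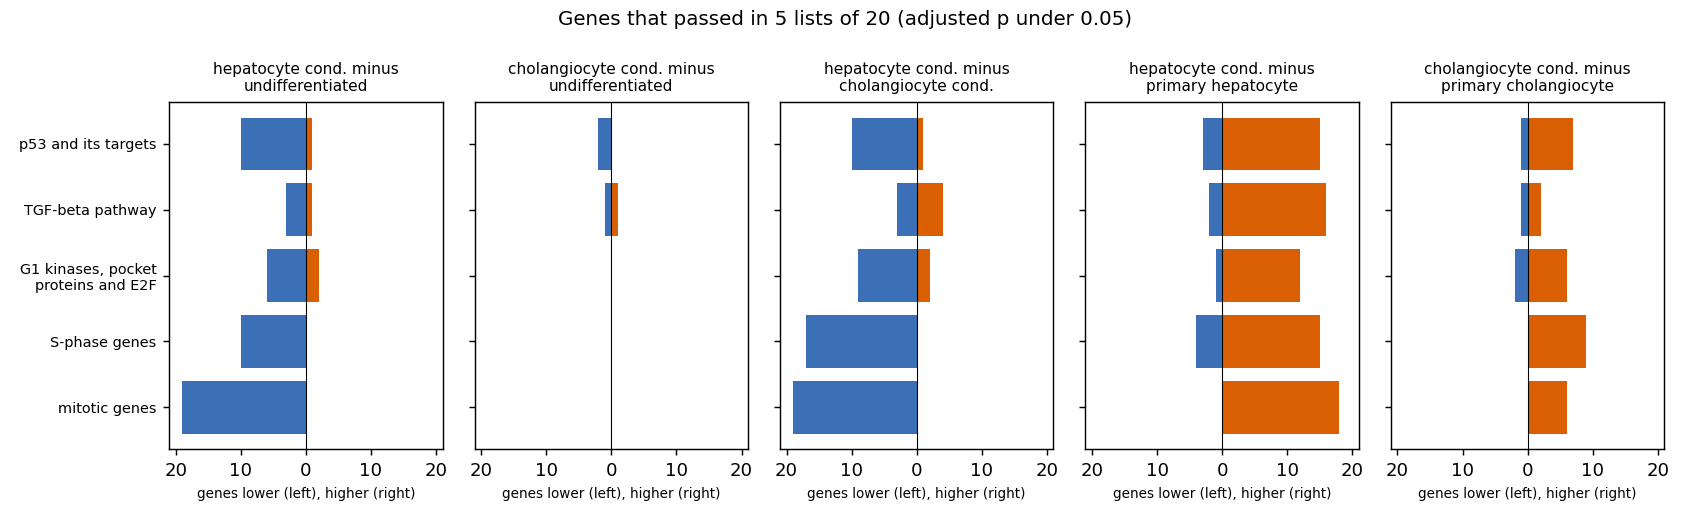
Number of genes higher (bars to the right) and lower (to the left) at an adjusted p under 0.05 in 5 lists of 20 genes each, for 5 comparisons. Mitotic genes were lower in 19 of 20 cases in the hepatocyte condition against undifferentiated cells and against the cholangiocyte condition, and higher in 18 of 20 against primary hepatocytes.

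The study then set the differentiated cells against primary cells. The hepatocyte condition held far more Cdkn1a, Cdkn2a, Cdkn2b, Ccnd1 and Ccnd2 than primary hepatocytes, and moderately more Cdkn1b. Of the 9 genes 6 were higher and none lower, where 25.9% of all genes were higher and 33.7% lower. All 6 calls passed under every alternative. The median difference of the 9 was 4.84, against -0.33 over all genes.

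Cdkn1a averaged 2.14 ± 0.39 in the hepatocyte condition and -4.99 ± 0.67 in primary hepatocytes, a 139-fold difference (7.12 ± 0.33, adjusted p = 3.74e-10). Within slides it was 7.12, 8.41 and 6.65. This is the size on the main probe, which was above background on 3 of the 4 primary hepatocyte arrays; the variant 2 probe gave 3.41 and the remaining probe, above background on none of the 4, gave 4.85. Cdkn2b averaged 1.50 ± 0.27 in the hepatocyte condition and -4.30 ± 0.35 in primary hepatocytes, a 55.6-fold difference (5.80 ± 0.20, adjusted p = 2.09e-11) that was 5.40, 5.20 and 6.20 within slides. Over the alternatives the smallest Cdkn2b difference was 4.30 and the smallest Cdkn1a difference 5.07. The second Cdkn2b probe was above background on none of the 4 primary hepatocyte arrays. Cdkn2a also passed (adjusted p = 2.28e-10 on the measured values). It was 202-fold higher with its primary hepatocyte values raised to the lowest signal above background on each array. That floor is a convention and no strict bound. Under normexp background correction the difference was 4.74 on the log2 scale.

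Ccnd2 averaged 2.54 ± 0.73 in the hepatocyte condition and -3.68 ± 0.22 in primary hepatocytes, which is 74.5-fold (6.22 ± 0.54, adjusted p = 2.75e-07). Ccnd1 averaged 4.64 ± 0.60 in the hepatocyte condition and -0.20 ± 0.64 in primary hepatocytes, which is 28.7-fold (4.84 ± 0.42, adjusted p = 2.62e-07). Both cyclins were higher within each of the 3 shared slides, Ccnd1 by 4.01, 6.00 and 5.04 and Ccnd2 by 5.36, 7.23 and 6.79. Cdkn1b was 3.06-fold higher (1.62 ± 0.24, adjusted p = 5.54e-05), and 1.69 within each slide. Cdkn1c (1.18 ± 0.62, adjusted p = 0.115), Cdkn2c (0.34 ± 0.21, adjusted p = 0.169) and Ccnd3 (0.42 ± 0.31, adjusted p = 0.265) did not pass. These passed in 2, 2 and 1 of 20 alternatives, Cdkn1c and Ccnd3 in the authors' deposited table.

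The primary hepatocyte arrays also differed in markers of other cells. The mean of 8 endothelial genes was -5.94 to -5.27 in the hepatocyte condition and -1.88 to -1.28 in primary hepatocytes, and all 8 were lower in the hepatocyte condition. The mean of the 4 measured red blood cell genes, of 7 listed, was -8.19 to -6.63 in the hepatocyte condition and -1.96 to -0.91 in primary hepatocytes. The mean of 11 Kupffer cell and leukocyte genes was -6.27 to -5.32 in the hepatocyte condition and -3.71 to -3.21 in primary hepatocytes. The part of these cells, and of the lower 75th percentile, in the results for primary hepatocytes was not tested.

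In the lists, 18 of 20 mitotic genes, 15 of 20 S-phase genes and 12 of 20 G1 genes were higher in the hepatocyte condition than in primary hepatocytes; 0, 4 and 1 were lower. Cdkn2d was higher by 2.75 ± 0.17 (adjusted p = 1.04e-08). Of 20 p53 genes 15 were higher and 3 lower, with the cell death gene Pmaip1 at 11.96 ± 0.52 (adjusted p = 2.02e-10) and Phlda3 at 8.46 ± 0.26 (adjusted p = 5.16e-12). Of 20 TGF-beta genes 16 were higher and 2 lower, with Ctgf at 10.41 ± 0.49 (adjusted p = 4.85e-10). Ezh2 was higher by 2.25 ± 0.18 (adjusted p = 1.36e-07) among 16 Polycomb genes, of which 9 were higher and 4 lower.

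On the biliary side fewer genes passed. Cdkn1a, Cdkn2b and Ccnd1 were higher in the cholangiocyte condition than in primary cholangiocytes. Of the 9 genes 3 were higher and none lower, where 11.9% of all genes were higher and 7.62% lower. Primary cholangiocytes had only 2 arrays, which lay apart for several members, and each call is therefore given with its limits.

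Ccnd1 averaged 6.34 ± 0.51 in the cholangiocyte condition (n = 3) and 4.28 ± 1.25 in primary cholangiocytes (n = 2), a difference of 2.07 ± 0.54 (adjusted p = 0.0159). Cdkn2b averaged 2.80 ± 0.10 in the cholangiocyte condition and 1.72 ± 0.36 in primary cholangiocytes, a difference of 1.08 ± 0.26 (adjusted p = 0.00972). The second Cdkn2b probe gave a similar 1.01 but did not pass (adjusted p = 0.193 over probes). Cdkn1a averaged 3.29 ± 0.35 in the cholangiocyte condition and 1.82 ± 0.61 in primary cholangiocytes, a difference of 1.47 ± 0.42 (adjusted p = 0.0256). All 3 calls were lost without primary cholangiocyte replicate 3, with adjusted p of 0.217, 0.107 and 0.220 and a Ccnd1 difference of 1.18, and none of the 9 genes passed when only these 2 groups entered the fit. Without replicate 4, 5 of the 9 genes passed. With slide as a block Ccnd1 alone passed. Averaging its probes moved the Cdkn1a difference to 2.77. In the 1 slide that held both groups the differences were 1.20 for Ccnd1, 0.94 for Cdkn2b and 0.70 for Cdkn1a. Ccnd2 differed by 0.59 ± 0.70 (adjusted p = 0.646) and Ccnd3 by -0.99 ± 0.41 (adjusted p = 0.108). Cdkn1c (-1.66 ± 0.80), Cdkn2a (1.45 ± 0.54) and Cdkn2c (0.52 ± 0.27) had adjusted p of 0.179, 0.076 and 0.212. Some of these values turned on which primary cholangiocyte array was kept. Without replicate 3 Ccnd2 was -0.81, Cdkn2a was 0.49 and Cdkn1c passed at -2.94 (adjusted p = 0.0420). Without replicate 4 Ccnd2 was 1.99, Cdkn1c was -0.38 and Cdkn2a passed at 2.40 (adjusted p = 0.00964).

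Of the lists, 6 of 20 mitotic, 9 of 20 S-phase and 6 of 20 G1 genes were higher in the cholangiocyte condition than in primary cholangiocytes. In the same order 0, 0 and 2 were lower. Of 20 p53 genes 7 were higher and 1 lower, with the death receptor Fas higher by 3.85 and the damage-response gene Gadd45a lower by -1.61. Of the 14 genes around p27, 3 were higher and 2 lower. Skp2 (1.69) and Cks1b (1.57) were higher and Foxo1 (-1.33) and Foxo4 (-1.11) lower, while Cdkn1b itself differed by -0.30 ± 0.31 (adjusted p = 0.590).

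Whether the gap between differentiated and primary cells was the same for both lineages was tested as a difference of differences. The difference on the hepatocyte side minus that on the biliary side was above 0 for the 8 of the 9 genes that passed. Of all 26039 genes, 4039 passed above 0 and 5787 below it, or 37.7% in either direction. The difference was 5.65 ± 0.54 for Cdkn1a (adjusted p = 2.13e-06), 4.72 ± 0.33 for Cdkn2b (adjusted p = 1.04e-07), 5.63 ± 0.88 for Ccnd2 (adjusted p = 0.000195) and 2.78 ± 0.68 for Ccnd1 (adjusted p = 0.00553). For Cdkn1b it was 1.92 ± 0.40 (adjusted p = 0.00168), but the second Cdkn1b probe gave 0.55 ± 0.63 (adjusted p = 0.511 over probes) and did not pass. For Cdkn2c it was -0.17 ± 0.34 (adjusted p = 0.706). The fitted 8.04 ± 0.68 for Cdkn2a rests on primary hepatocyte signals not above background, and it was 3.35 under normexp background correction. The calls for Cdkn1c (2.85 ± 1.02, adjusted p = 0.0401) and Ccnd3 (1.41 ± 0.51, adjusted p = 0.0434) were lost in 11 and 13 of 23 alternatives. The Cdkn1a value was 3.65 under normexp background correction and 2.36 with its probes averaged, and the Cdkn1b value was 1.24 with probes averaged and 1.27 without primary cholangiocyte replicate 3. Without primary cholangiocyte replicate 4 the Cdkn1c value was 1.57 (adjusted p = 0.257). The Cdkn1a value depended on the probe. It was -0.61 ± 0.63 (adjusted p = 0.466) with the variant 2 probe, which was above background on 3 of the 4 primary hepatocyte arrays, and 2.04 ± 0.72 (adjusted p = 0.0372) with the remaining probe, which was above background on none of them.

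The primary cell types were then set against each other and against the progenitors. These comparisons share arrays with the ones above, so they add levels and not independent evidence. Primary hepatocytes were lower than primary cholangiocytes for 6 of the 9 genes and higher for none, where 21.6% of all genes were lower and 28% higher. Ccnd2 was 152-fold lower (-7.25 ± 0.66, adjusted p = 6.37e-07), Cdkn1a 112-fold lower (-6.80 ± 0.40, adjusted p = 7.87e-09) and Cdkn2b 64.7-fold lower (-6.02 ± 0.25, adjusted p = 1.88e-10). Cdkn2a was 149-fold lower with its primary hepatocyte values raised to the same floor (adjusted p = 4.84e-09 on the measured values). Ccnd1 was 22.3-fold lower (-4.48 ± 0.51, adjusted p = 5.64e-06). With its probes averaged, the Cdkn1a difference was -3.68, and the Cdkn2a difference was -4.32 under normexp background correction. The smallest Cdkn2b difference over the alternatives was -4.49. Within the 2 shared slides, Cdkn2b differed by -5.51 and -6.46 and Ccnd2 by -6.01 and -8.83. The Cdkn1b call (-0.80 ± 0.30, adjusted p = 0.0375) was lost in 11 of 18 alternatives. Its value was -0.16 without primary cholangiocyte replicate 3 and -1.45 without replicate 4. The second Cdkn1b probe had the opposite sign, at 0.23 (adjusted p = 0.701 over probes), and did not pass. Cdkn1c (-0.69 ± 0.76, adjusted p = 0.469), Cdkn2c (0.59 ± 0.25, adjusted p = 0.0664) and Ccnd3 (-0.56 ± 0.39, adjusted p = 0.246) did not pass.

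Primary hepatocytes were also lower than undifferentiated cells for 6 of the 9 genes and higher for none, where 26.5% of all genes were lower and 37.7% higher. Cdkn2b was 255-fold lower (-7.99 ± 0.20, adjusted p = 6.83e-13), Cdkn1a 246-fold (-7.94 ± 0.33, adjusted p = 1.03e-10) and Ccnd2 349-fold (-8.45 ± 0.54, adjusted p = 9.26e-09). Over the alternatives the smallest differences were -6.47 for Cdkn2b and -5.88 for Cdkn1a. The other Cdkn1a probes gave -5.06 (variant 2) and -5.44. Cdkn2a was 840-fold lower on the processed signal with the same floor (adjusted p = 2.71e-11 on the measured values). Its difference was -6.79 on the log2 scale under normexp background correction. Ccnd1 differed by -6.77 ± 0.42 (adjusted p = 6.35e-09) and Cdkn1b by -0.82 ± 0.24 (adjusted p = 0.00889), which became -1.27 when arrays were centred on their median. These 6 calls passed under every alternative, none of which took the second Cdkn1b probe alone. That probe gave -0.72 (adjusted p = 0.118 over probes) and did not pass. Ccnd3 differed by -0.03 ± 0.31 (adjusted p = 0.934), Cdkn1c by 0.28 ± 0.62 (adjusted p = 0.702) and Cdkn2c by 0.26 ± 0.21 (adjusted p = 0.277). Of 20 mitotic genes all 20 were lower in primary hepatocytes, as were 15 of 20 G1 genes.

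Primary cholangiocytes were lower than undifferentiated cells for 3 of the 9 genes and higher for none, where 10.6% of all genes were lower and 8.5% higher. Cdkn2a was 5.64-fold lower (-2.50 ± 0.51, adjusted p = 0.00357), Ccnd1 4.91-fold (-2.30 ± 0.51, adjusted p = 0.00644) and Cdkn2b 3.94-fold (-1.98 ± 0.25, adjusted p = 8.08e-05). In the 1 shared slide these were -2.86, -2.97 and -1.94. The second Cdkn2a probe gave -1.83 and did not pass (adjusted p = 0.0511 over probes), while the second Cdkn2b probe passed at -2.15 (adjusted p = 0.00625). Without primary cholangiocyte replicate 3, or with only these groups in the fit, Cdkn2b alone passed; without that replicate Ccnd1 was -1.41 (adjusted p = 0.131) and Cdkn2a -1.54 (adjusted p = 0.0815). Cdkn1a at -1.14 ± 0.40 (adjusted p = 0.0634) and Ccnd2 at -1.20 ± 0.66 (adjusted p = 0.245) did not pass. Cdkn1a passed in 5 of 18 alternatives, with -2.47 when its probes were averaged (adjusted p = 0.00017). Ccnd2 passed without primary cholangiocyte replicate 4, at -2.60 (adjusted p = 0.0132), and was 0.20 without replicate 3. Cdkn1b (-0.02 ± 0.30), Cdkn1c (0.98 ± 0.76), Cdkn2c (-0.33 ± 0.25) and Ccnd3 (0.52 ± 0.39) had adjusted p of 0.976, 0.430, 0.421 and 0.400. Of 20 mitotic genes 4 were lower.

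The probes of Cdkn1a gave unlike results, and the variant 2 probe shown above is therefore described on its own. Its levels were -3.02, -2.31, -1.95 and -1.89 in the hepatocyte condition, -0.53, -0.74 and 0.31 under the cholangiocyte condition, -5.75, -5.29, -6.81 and -4.97 in primary hepatocytes, -4.74 and -3.95 in primary cholangiocytes, and -0.64, -1.05, -0.51 and -0.39 in undifferentiated cells. With this probe the hepatocyte condition lay below all arrays of undifferentiated cells and of the cholangiocyte condition, and primary cholangiocytes lay lower again. The hepatocyte condition differed from undifferentiated cells by -1.65 ± 0.39 (adjusted p = 0.0102 over 32305 probes), where the main probe did not pass. It differed from the cholangiocyte condition by -1.97 ± 0.42 (adjusted p = 0.00578). The cholangiocyte condition was above primary cholangiocytes by 4.03 ± 0.50 (adjusted p = 9.39e-05), where the main probe gave 1.47. Primary cholangiocytes differed from undifferentiated cells by -3.70 ± 0.48 (adjusted p = 0.000106), and primary hepatocytes from primary cholangiocytes by -1.36 (adjusted p = 0.0283), where the main probe gave -6.80. On primary hepatocyte array 3 the variant 2 probe was not well above background. The remaining Cdkn1a probe, at chr17:29235299-29235358, gave -0.60 between the hepatocyte condition and undifferentiated cells (adjusted p = 0.422), 2.81 for the cholangiocyte condition against primary cholangiocytes (adjusted p = 0.00331) and -2.57 for primary cholangiocytes against undifferentiated cells (adjusted p = 0.00408).

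The level of the variant 2 probe minus that of the main probe on the same array was -4.60, -4.54, -4.22 and -4.35 in the hepatocyte condition, -3.82, -3.68 and -3.33 under the cholangiocyte condition, -6.13 and -6.19 in primary cholangiocytes, and -3.77, -3.52, -3.64 and -3.49 in undifferentiated cells. The value is no ratio of transcript amounts, since probes differ in brightness, and only its change between groups is read; it was set up after the data were seen. The hepatocyte condition and undifferentiated cells did not overlap (difference -0.83, exact two-sided permutation p = 0.0286, the smallest this design allows, and 0.0762 adjusted over 8 comparisons). The cholangiocyte condition and undifferentiated cells overlapped (difference -0.01, exact permutation p = 0.971). Primary cholangiocytes lay below undifferentiated cells by -2.56 without overlap, where 2 arrays against 4 cannot go below an exact permutation p of 0.133. In primary hepatocytes the value was -0.72 ± 1.32 (SD, n = 4), with the main probe above background on 3 of the 4 arrays, and no comparison was drawn from it.

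**Figure D4:**
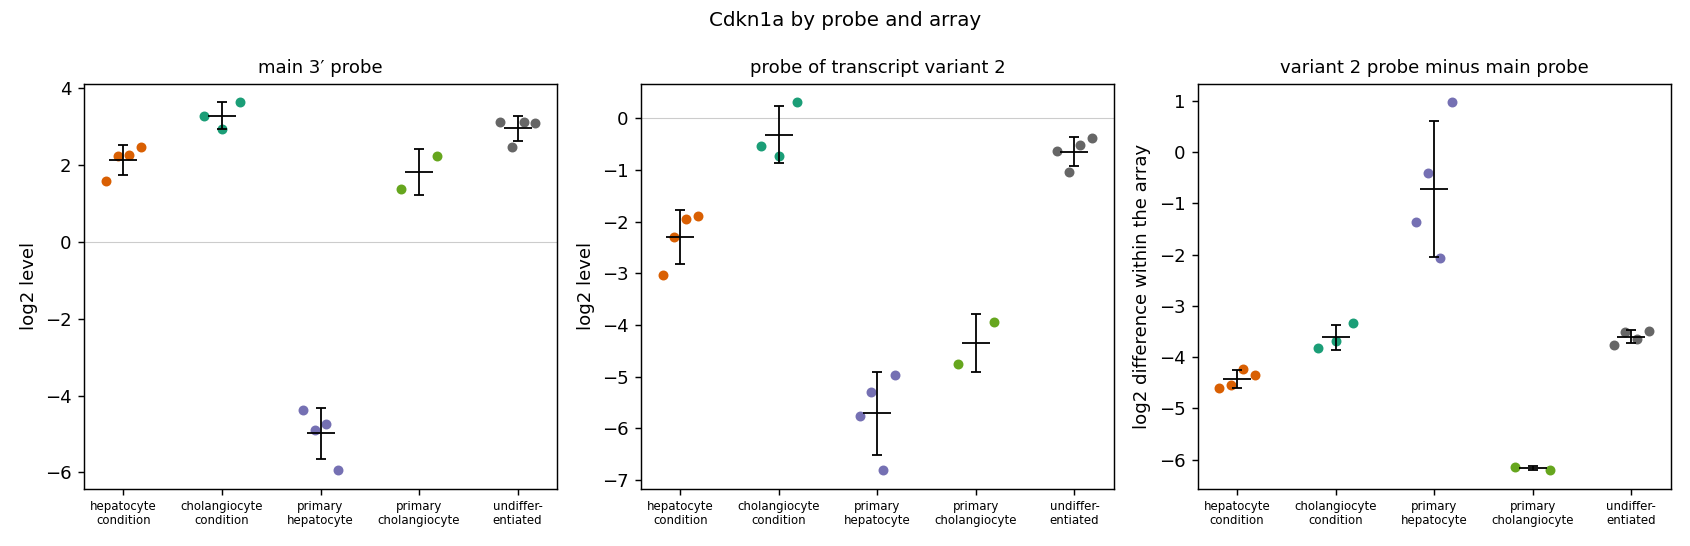
Level of the main Cdkn1a probe, level of the variant 2 probe and their difference within each array (log2, vertical axes) for the arrays of the 5 groups; points are arrays and bars are means ± SD. The within-array difference was lowest in the 2 primary cholangiocyte arrays, at -6.13 and -6.19, and lower in the hepatocyte condition than in undifferentiated cells.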

How the data were processed

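Total RNA from liver samples and sorted cells was amplified with the WT-Ovation Pico system and labelled with Cy3, per the labels' protocols, and hybridised to 17 one-colour arrays on 5 slides. The deposited intensity is the processed Cy3 signal of Agilent Feature Extraction 10.5.1.1 per the file headers (9.53 per the submitters' processing notes), background-subtracted and not scaled between arrays. The authors also deposited a score, the signed fold change between groups, and a false discovery rate in percent, made by steps not given in the sources used here; both served as an alternative.

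Values were the log2 of that deposited intensity minus the log2 of the array's 75th percentile. Control spots and 135 probes with outlier spots were left out, the 10 spots of each of 399 probes were averaged, and probes well above background on at least 2 arrays were kept. The highest-mean probe stood for a gene. limma 3.58.1 in R 4.3.3 was fitted to 26039 genes over all arrays, with Benjamini-Hochberg adjustment, and tested on simulated data. The number of arrays limits the precision. The members and gene lists were chosen with earlier results of these data known. All 9 genes were named in every comparison, list genes if they passed with the largest changes (up to 2 per list and direction), and for each member the 3 genes of highest correlation. The main fits took no pairing by replicate number, and a replicate block was run as an alternative. Same-numbered arrays of the cholangiocyte condition and undifferentiated cells deviated together (r = 0.281 to 0.385), and the block changed no call there. For the hepatocyte condition and undifferentiated cells, r was 0.519 for replicate 4 and -0.147 to -0.030 for replicates 1 to 3.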

Additional observations from a re-analysis of the deposited data

Results flagged for a closer look

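Cdkn1a in undifferentiated cells was 2.47 on array 2, set against 3.10 to 3.13 on the other 3 arrays of the group, a gap that takes most of the group's range. The limit used to single out such gaps is passed by chance in about 1 in 20 groups.

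By a test of the difference itself, the gap between differentiated and primary cells differed between the hepatocyte and the biliary side for 8 genes. Over all 26039 genes, 4039 passed above 0 and 5787 below it. The differences were 5.65 for Cdkn1a, 1.92 for Cdkn1b, 2.85 for Cdkn1c, 8.04 for Cdkn2a, 4.72 for Cdkn2b, 2.78 for Ccnd1, 5.63 for Ccnd2 and 1.41 for Ccnd3. Cdkn2a rests on primary hepatocyte signals not above background, and its value was 3.35 under normexp background correction. For Cdkn1b the second probe gave 0.55 ± 0.63 (adjusted p = 0.511 over probes) and did not pass. For Cdkn1a the variant 2 probe, which was above background on 3 of the 4 primary hepatocyte arrays, gave -0.61 ± 0.63 and did not pass, and the remaining probe, above background on none of them, gave 2.04 ± 0.72 (adjusted p = 0.0372).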

How the results depend on the processing

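The 81 differences of the 9 genes kept their side of the threshold under every alternative in 50 cases, lost a call in some setting in 14 and gained one in 17. No difference that passed changed direction, but several that did not pass changed sign, such as Ccnd3 in primary hepatocytes against undifferentiated cells, at 0.17 without undifferentiated replicate 4. The cause of the losses and gains was not tested. For the cholangiocyte condition against undifferentiated cells, the number of genes that passed was 1 with median scaling, with the stricter filter and with array weights. Against primary cholangiocytes it was 0 with the compared groups alone and in the authors' deposited table, and 1 with slide as a block or array weights. For primary cholangiocytes against undifferentiated cells it was 1 with the compared groups alone. For the hepatocyte condition it was 3 against undifferentiated cells with slide as a block; against the cholangiocyte condition it was 3 without a filter and 8 with array weights.

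Leaving out 1 array at a time gave 4 to 5 for the hepatocyte condition against undifferentiated cells, 6 to 7 against primary hepatocytes and 2 to 4 against the cholangiocyte condition. It gave 0 to 0 for the cholangiocyte condition against undifferentiated cells and 1 to 5 against primary cholangiocytes. For primary hepatocytes it gave 5 to 6 against primary cholangiocytes and 6 to 6 against undifferentiated cells, for primary cholangiocytes against undifferentiated cells 1 to 5, and for the difference of differences 6 to 8. The counts of 1 on the biliary side arose without primary cholangiocyte replicate 3 and the counts of 5 without replicate 4. The count of 2 for the hepatocyte against the cholangiocyte condition arose without hepatocyte condition replicate 2 or cholangiocyte condition replicate 1 or 2.

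With the replicate block the hepatocyte condition had 5 genes against undifferentiated cells, 6 against primary hepatocytes and 4 against the cholangiocyte condition, and the difference of differences had 6. The block gave 0 for the cholangiocyte condition against undifferentiated cells and 3 against primary cholangiocytes. For primary hepatocytes it gave 5 against primary cholangiocytes and 6 against undifferentiated cells, and for primary cholangiocytes against undifferentiated cells 3. The main results did not take the numbers as pairing for any groups.

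Counts over all genes for the cholangiocyte condition against undifferentiated cells were 360 in the model used, 105 with the compared groups alone, 181 with slide as a block, 223 with the replicate block, 802 with array weights, 203 in the authors' deposited table and 128 at the lowest on leaving out 1 array. Against primary cholangiocytes 5088 became 1074 with the compared groups alone, 2805 with array weights and 2990 in the deposited table, and for primary cholangiocytes against undifferentiated cells 4962 became 1638 and 2293. The deposited table, over 37908 probes, called 6572 where 3986 genes passed for the hepatocyte condition against undifferentiated cells, 6163 against 4004 for it against the cholangiocyte condition, 27694 against 15532 for it against primary hepatocytes and 27984 against 16718 for primary hepatocytes against undifferentiated cells. The difference of differences had 17052 against 9826 with normexp. Leaving out cholangiocyte condition replicate 1 or 2 gave 2648 and 2649 against 4004. The share of calls that were higher moved under median scaling to 28.7% against 49.7% (hepatocyte condition, undifferentiated), 37.0% against 56.7% (cholangiocyte condition, undifferentiated), 45.1% against 58.6% (primary hepatocyte, undifferentiated) and 32.8% against 44.6% (primary cholangiocyte, undifferentiated). Under quantile normalization it was 43.2% against 56.7% (cholangiocyte condition, undifferentiated), 47.0% against 58.6% (primary hepatocyte, undifferentiated) and 52.4% against 41.1% (difference of differences). The median of all genes moved by over 0.1 in several settings, for example to 0.87 against 0.35 for primary hepatocytes against primary cholangiocytes under normexp; the median of the difference of differences went to -0.98 against -0.44. Signals near background limit Cdkn2a in primary hepatocytes. The sizes for Cdkn1a and Cdkn2b there also moved between alternatives. For primary hepatocytes against undifferentiated cells their smallest differences were -5.88 and -6.47. For the hepatocyte condition against primary hepatocytes they were 5.07 and 4.30.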
